A study of Mus musculus with 16 samples.

Results

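Hepatokines are proteins that hepatocytes release into the blood and that act on other organs. The 7 hepatokine genes described here were Ahsg, Fetub, Angptl6, Inhbe, Gdf15, Enho and Lect2. A probe was taken where its gene name in the scanner files equalled 1 of these symbols, which gave 8 probes (2 for Enho, 1 for each other gene) among 37074 gene names on the array. All 7 genes were among the 20404 genes kept after the filter on dim probes, and each of their probes was well above background on 16 of 16 arrays. No group of mice differed from another in any of the 7 genes by the tests used, and what varied was the level from mouse to mouse, which was wide for Gdf15 and narrow for Fetub and Ahsg.

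The study asked what a transfer of gut microbiota from lean or obese donors does to the liver of conventional (Conv) mice that had never received antibiotics. All recipients were C57BL/6 males aged 10 weeks and fed normal chow. Conv + PBS mice (n = 6) were gavaged with the vehicle, reduced PBS, although the sample labels call them not transplanted. Conv + LM mice (n = 5) received the caecal content of lean chow-fed donors, and Conv + OM(HFD) mice (n = 5) that of donors made obese by a high-fat diet. The caecal content was pooled from several donors per group, so the inoculated mice of a group are not independent in inoculum. Mice were housed 5 or 6 per cage, and the paper does not state which mice shared a cage. Cage and group may therefore coincide. Liver RNA of each mouse was hybridised to 1 single-colour array, and the 16 arrays lay on 2 slides, with mice of each group on both.

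As background, Gdf15 and Inhbe belong to the TGF-beta superfamily. Gdf15 signals through the Gfral receptor of the hindbrain to lower food intake and is induced by cell stress, and Inhbe encodes the beta subunit of activin E, made almost solely by hepatocytes. Enho encodes adropin, a peptide tied to glucose and lipid use, and Angptl6 is an angiopoietin-like protein of the same field. Ahsg and Fetub encode fetuin-A and fetuin-B, abundant plasma proteins of the cystatin superfamily that inhibit insulin signalling and an egg-coat protease, respectively. Lect2 is a chemotactic protein and a known target of beta-catenin in hepatocytes.

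The promoter bases of 3 members are shown because the relations below set these genes against the factors or pathways that such motifs are known for. RefSeq's promoter table (GRCm38.p6) held 8 windows for 6 of the 7 members; Enho was not matched. The 250 bases before each listed start were searched on both strands for the E-box CACGTG, the C/EBP-ATF response element TGATGNAA and the TCF/LEF motif CTTTGAT, which do not overlap in these windows. Capitals mark the match, written 5′ to 3′ on the gene's strand.

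Gdf15 (chr8:70632161-70632190, minus strand, 30 bases around the match): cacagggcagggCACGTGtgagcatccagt
Inhbe (chr10:127351849-127352098, minus strand): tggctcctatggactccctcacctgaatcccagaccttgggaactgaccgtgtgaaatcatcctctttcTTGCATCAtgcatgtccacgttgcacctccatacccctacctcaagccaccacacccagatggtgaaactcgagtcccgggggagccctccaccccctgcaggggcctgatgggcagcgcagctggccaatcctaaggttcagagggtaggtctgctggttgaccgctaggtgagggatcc
Lect2 (chr13:56548560-56548788, minus strand): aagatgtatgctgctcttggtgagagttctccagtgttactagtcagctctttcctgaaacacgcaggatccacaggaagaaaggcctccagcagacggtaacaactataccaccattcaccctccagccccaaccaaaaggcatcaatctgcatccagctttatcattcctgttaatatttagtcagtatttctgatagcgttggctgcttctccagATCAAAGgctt

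The E-box lay at -83 to -78 from the downstream of the 2 listed Gdf15 starts, the C/EBP-ATF element at -181 to -174 from the Inhbe start (reverse strand), and the TCF/LEF motif at -32 to -26 from the Lect2 start (reverse strand). Each motif was found in no window of the other members. Over all 32851 windows of the same length, CACGTG was found in 6.02%, TGATGNAA in 3.45% and CTTTGAT in 3.21%. A match describes these letters only.

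Levels are given as log2 of the background-subtracted brightness relative to the 75th percentile of the array, so that 1 unit is a 2-fold difference. Probes of different genes do not share a scale, so levels are ordered between groups and mice of 1 gene, not between genes. Between 49.7% and 58.3% of probes were well above background per array, and the median correlation of an array with the others was 0.982 to 0.989. The liver label was met by 7 of 7 hepatocyte markers, whose mean log2 level was 8.08 to 8.49 over the 16 mice. In bulk liver, fewer cells that make a transcript and less transcript per cell cannot be told apart.

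Gdf15 varied most of the 7. In Conv + PBS its log2 level ran from -0.14 over a median of 1.31 to 1.81. In Conv + LM the 5 mice were at -0.65, 0.26, 1.68, 1.82 and 2.40, and in Conv + OM(HFD) at 0.44, 0.84, 1.13, 1.31 and 2.07. The lowest and the highest of all 16 mice were both in Conv + LM, 8.25-fold apart, and the 3 groups overlapped over most of their ranges. From the highest to the lowest, mean ± SD was 1.16 ± 0.61 with OM(HFD) (n = 5), 1.101 ± 1.25 with LM (n = 5) and 1.04 ± 0.75 with PBS (n = 6). Groups accounted for 0.353% of the variance of Gdf15 among mice, against a median of 8.97% over all genes. This share was 0.943% for Lect2, 7.02% for Inhbe and 7.48% for Fetub, and above that median for Angptl6 (9.44%), Enho (12.4%) and Ahsg (19.7%).

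The slide moved with Gdf15. Its log2 level was 0.97 higher on slide 2 than on slide 1 with group means fitted (exact permutation of slides within groups, two-sided p = 0.0275, and 0.193 after Benjamini-Hochberg over the 7 members), a size above that of 99.5% of genes, while 10.5% of all genes had such a p under 0.05. The other 6 members differed by 0.02 to 0.10 between slides, with exact p from 0.324 to 0.944. Within slide 1 the Conv + LM mean of Gdf15 was 1.13 below that of Conv + PBS (limma, unadjusted p = 0.0875), and within slide 2 it was 0.82 above it (unadjusted p = 0.0668), each against a pooled difference of 0.06. With slide in the fit the difference was -0.04. The slide and the mice hybridised on it cannot be told apart.

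Inhbe showed the next pattern of this kind, with 2 mice set apart. Conv + LM mice 13 and 17 were at 3.42 and 3.40 on the log2 scale, and the other 3 mice of that group at 2.35, 2.43 and 2.59. In Conv + PBS the level ran from 2.34 over a median of 2.57 to 3.02, and in Conv + OM(HFD) the mice were at 2.30, 2.33, 2.76, 2.87 and 3.03. All 3 groups overlapped, and mean ± SD was 2.84 ± 0.53 with LM (n = 5), 2.66 ± 0.33 with OM(HFD) (n = 5) and 2.62 ± 0.26 with PBS (n = 6). Mouse 13 had the lowest Gdf15 level of all 16 mice and mouse 17 the highest, so that the mice high in Inhbe lay at opposite ends for Gdf15.

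Enho was read by 2 probes that share 48 bases. They correlated at 0.992 over the 16 mice, and the probe that stands for the gene was 0.33 ± 0.05 (SD, n = 16) higher in log2 level. With that probe Conv + PBS ran from 3.86 over a median of 4.24 to 4.84, Conv + LM mice were at 4.40, 4.49, 4.52, 4.80 and 4.82, and Conv + OM(HFD) mice at 4.06, 4.30, 4.35, 4.52 and 5.56. Mouse 25 of Conv + OM(HFD), at 5.56, was the highest of all mice, and every other mouse lay within the range of Conv + PBS. Mean ± SD was 4.61 ± 0.19 with LM (n = 5), 4.56 ± 0.58 with OM(HFD) (n = 5) and 4.29 ± 0.38 with PBS (n = 6).

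Angptl6 had the opposite extreme in the same mouse. Mouse 25 was at 2.06 on the log2 scale, the lowest of 16, and the other Conv + OM(HFD) mice were at 2.68, 2.82, 2.84 and 2.94. Conv + PBS ran from 2.60 over a median of 2.87 to 2.91 and Conv + LM from 2.61 over a median of 2.82 to 2.90. Apart from mouse 25, every mouse lay between 2.60 and 2.94. Mean ± SD was 2.83 ± 0.12 with PBS (n = 6), 2.77 ± 0.13 with LM (n = 5) and 2.67 ± 0.35 with OM(HFD) (n = 5), an order that turned within slide 2 and in which Conv + OM(HFD) lay 0.06 above Conv + LM without mouse 25.

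Fetub and Ahsg were the steadiest of the 7. Fetub stayed between 7.56 and 7.91 over all 16 mice, a 1.27-fold span, with a mean ± SD of 7.78 ± 0.14 with OM(HFD) (n = 5), 7.73 ± 0.08 with PBS (n = 6) and 7.71 ± 0.12 with LM (n = 5). Ahsg stayed between 9.59 and 10.08, a 1.40-fold span, with 9.96 ± 0.08 with OM(HFD) (n = 5), 9.87 ± 0.10 with PBS (n = 6) and 9.81 ± 0.20 with LM (n = 5). The place of Conv + OM(HFD) above Conv + PBS for Ahsg was turned by quantile normalization (-0.01) and in the authors' processed values (-0.02), and the small difference of Fetub between LM and PBS was turned in the latter (0.0095). No pair of groups had an unadjusted limma p under 0.05 in either gene under any of these scalings. The widest gap, between OM(HFD) and LM for Ahsg, was 1.13 times the SD among mice.

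Lect2 lay between these extremes. Conv + LM mice were at 4.61, 4.84, 4.996, 5.24 and 5.30 on the log2 scale, the widest group, and Conv + OM(HFD) mice at 4.63, 4.996, 5.01, 5.05 and 5.14, with mouse 25 again at the low end. Conv + PBS ran from 4.73 over a median of 5.11 to 5.19. Mean ± SD was 5.01 ± 0.20 with PBS (n = 6), 4.998 ± 0.29 with LM (n = 5) and 4.96 ± 0.19 with OM(HFD) (n = 5), and this order changed with the scaling and the background correction.

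**Figure D1:**
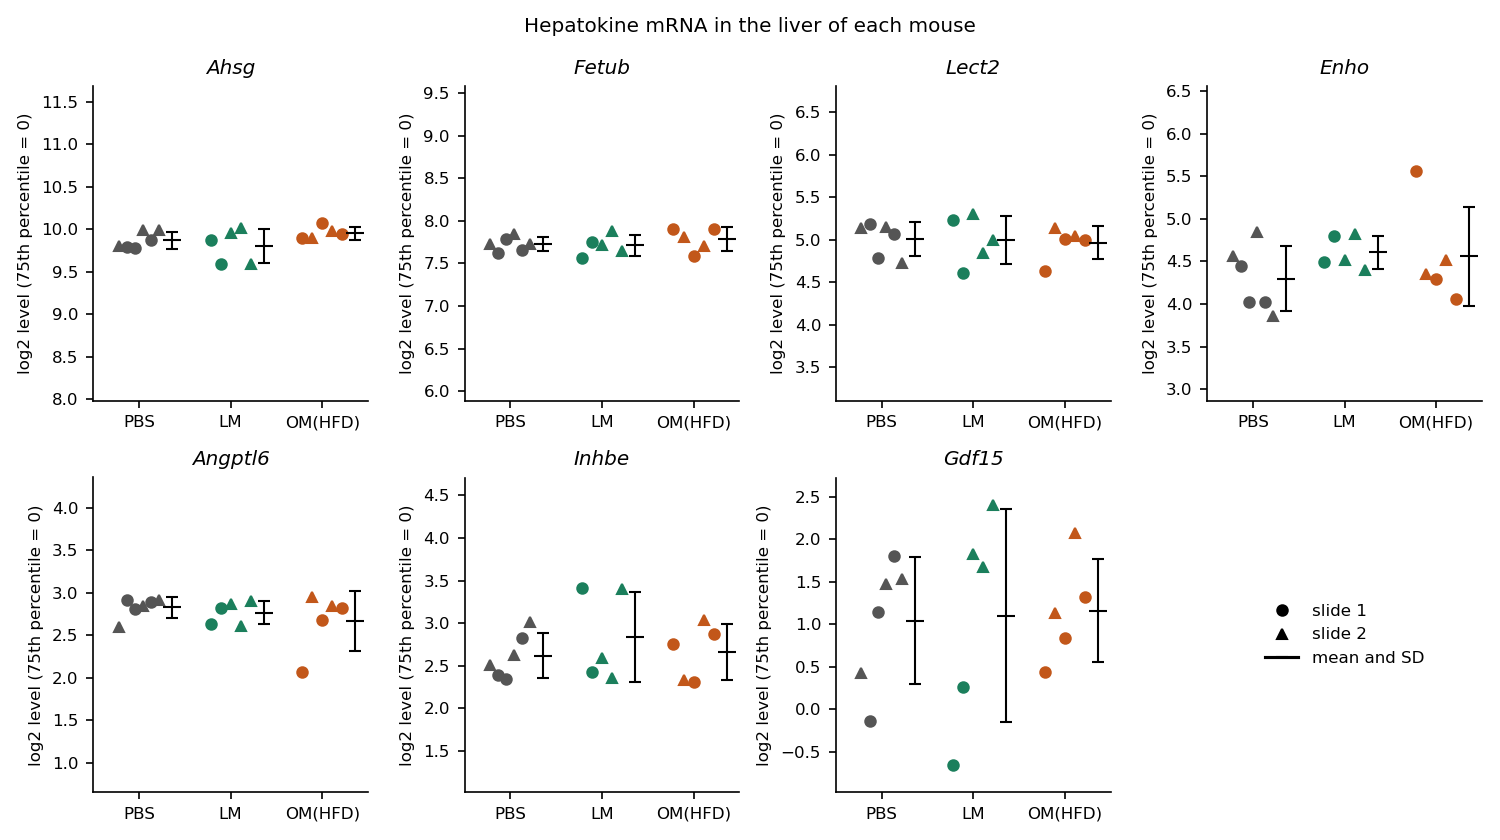
Liver mRNA of the 7 hepatokines in each mouse, on the y axis as log2 level relative to the 75th percentile of the array and on the x axis by group (PBS, n = 6; LM and OM(HFD), n = 5 each). Points are mice, with shapes for the slide, bars are mean and SD, and every panel spans the same number of log2 units; Gdf15 covers a range of 3.04 and Fetub of 0.35, and the groups overlap in each panel.

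Among mice of 1 group, the SD of Gdf15 around its group mean was 0.90 on the log2 scale, above that of 97.2% of all genes kept. Enho followed at 0.42 (78.1st percentile) and Inhbe at 0.38 (74.5th percentile). These 3 members lay above the median SD of all genes, 0.24. Lect2 at 0.23, Angptl6 at 0.22, Ahsg at 0.13 and Fetub at 0.12 lay below it, the last at the 7.24th percentile. With the slide fitted too, the SD of Gdf15 was 0.76. The SD of Ahsg was set by the scaling: it was 0.05 after quantile normalization and 0.07 in the authors' processed values.

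**Figure D2:**
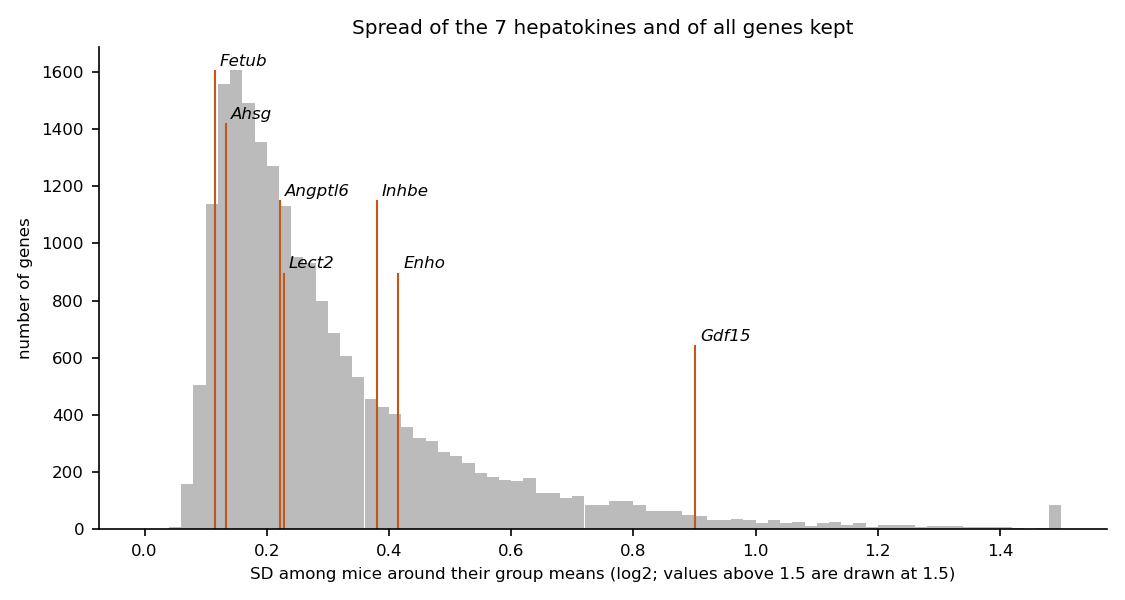
Number of genes (y axis) by SD among mice around their group means in log2 units (x axis), for all 20404 genes kept in grey, with the 7 hepatokines as vertical lines whose height carries no value. Fetub and Ahsg stand at the low edge, at 0.12 and 0.13, and Gdf15 in the upper tail, at 0.90.

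The first comparison asked whether the microbiota of obese donors changed hepatokine transcripts against the vehicle. In Conv + OM(HFD) vs. Conv + PBS, 0 of 7 members had an unadjusted limma p under 0.05, by which 3.27% of all genes were called, and 0 of 7 passed after Benjamini-Hochberg adjustment, as did 0 of all genes (0%). The log2 fold change was positive in 5 members and negative in 2, with a median of 0.05 against -0.0004 over all genes. This split was not stable: 3 were positive without Conv + PBS mouse 2 (median -0.0046) or Conv + OM(HFD) mouse 29 (median -0.05). After quantile normalization (median 0.03) and in the authors' processed values (median 0.02) 4 were positive, and 6 without Conv + OM(HFD) mouse 25 (median 0.02). The median was 0.11 without Conv + PBS mouse 6 and within slide 1. The largest were 0.26 ± 0.24 (SE) for Enho (limma, unadjusted p = 0.282; exact permutation p = 0.433) and -0.16 ± 0.13 (SE) for Angptl6 (unadjusted p = 0.26; exact permutation p = 0.396). Both rested on mouse 25: without it they were 0.01 and -0.0042. The lowest exact p among members was 0.141, for Ahsg, where the design allows 0.00216, and 0 of 7 members had an exact p under 0.05 (3.23% of all genes) or groups without overlap (0.236% of all genes).

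The second comparison asked the same of lean microbiota. In Conv + LM vs. Conv + PBS, 0 of 7 members had an unadjusted limma p under 0.05 (3.95% of all genes), 0 passed the adjustment (0% of all genes), 0 had an exact permutation p under 0.05 (4% of all genes) and 0 had groups without overlap (0.28% of all genes). Enho had the largest log2 fold change, 0.31 ± 0.24 (SE, unadjusted limma p = 0.208; exact permutation p = 0.152), and its other probe gave 0.29. Inhbe followed with 0.22 ± 0.22 (SE, unadjusted limma p = 0.331; exact permutation p = 0.381), which was 0.07 without mouse 13. Over the members the log2 fold change was positive in 3 and negative in 4, with a median of -0.01, as over all genes. This split turned to 4 and 3 after quantile normalization and in the authors' processed values, and to 5 and 2 within slide 2 and without Conv + PBS mouse 4. It was 2 and 5 within slide 1 (median -0.08) and without Conv + LM mouse 15 or 17. Leaving out 1 mouse moved the median from -0.09 to 0.08.

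The comparison of the inocula set obese against lean microbiota. In Conv + OM(HFD) vs. Conv + LM, 0 of 7 members had an unadjusted limma p under 0.05 (2.71% of all genes), 0 passed the adjustment (0% of all genes), 0 had an exact permutation p under 0.05 (3.09% of all genes) and 0 had groups without overlap (0.453% of all genes). Ahsg had the lowest p, with a log2 fold change of 0.15 ± 0.09 (SE, unadjusted limma p = 0.128; exact permutation p = 0.19). Without Conv + LM mouse 16 it was 0.20 (unadjusted p = 0.049, adjusted p = 0.993), while it was -0.0048 in the authors' processed values. Inhbe had -0.18 ± 0.23 (SE, unadjusted limma p = 0.448; exact permutation p = 0.532), and was -0.03 without Conv + LM mouse 13, -0.04 without mouse 17 and -0.30 without mouse 16. The other 5 members lay between -0.10 and 0.07.

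A p above the threshold does not show that groups were alike, and the intervals give what these mice could still hold. For Conv + OM(HFD) vs. Conv + PBS the 95% interval of the fold was 0.921 to 1.17 for Fetub, 0.93 to 1.21 for Ahsg and 0.791 to 1.18 for Lect2. It was 0.737 to 1.09 for Angptl6, 0.746 to 1.42 for Inhbe and 0.847 to 1.70 for Enho. For Gdf15 it ran from 0.515 to 2.28, so that a 2-fold rise lay inside it. The 3 comparisons share groups, and their fold changes are therefore not independent.

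**Figure D3:**
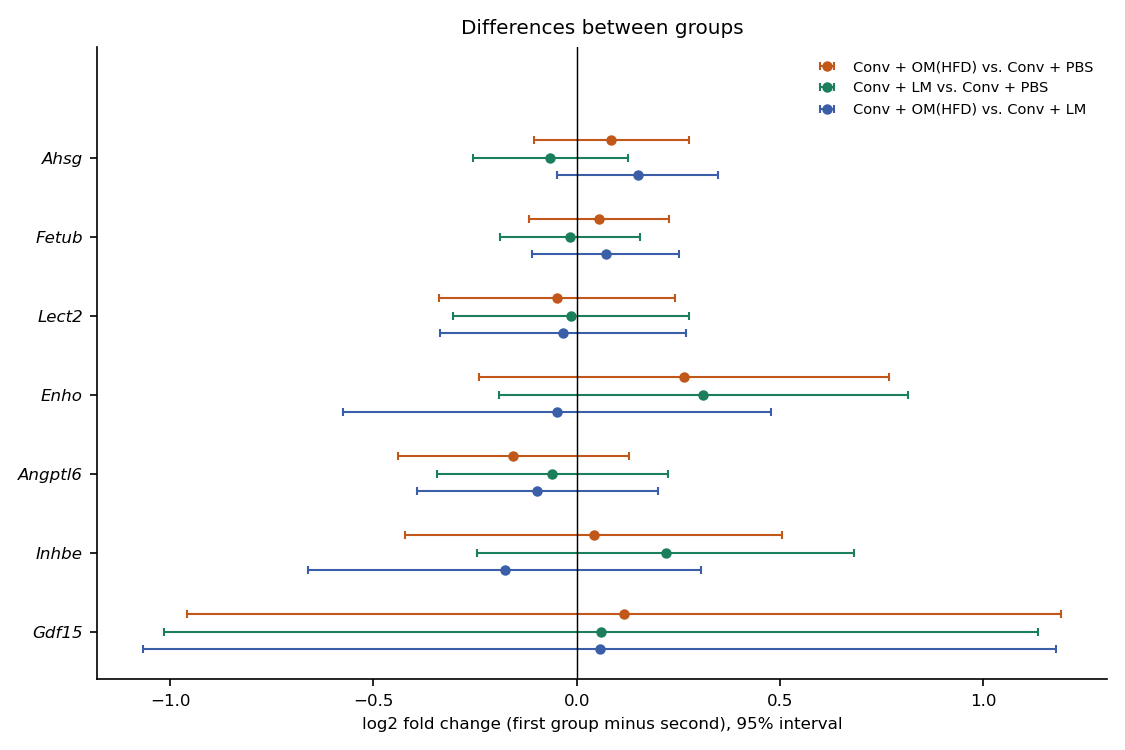
Log2 fold change of each hepatokine (x axis, first group minus second, points) with its 95% interval from limma (bars) in the 3 comparisons, by gene (y axis). Every interval crosses 0; those of Fetub and Ahsg are narrow and those of Gdf15 span from about -1.07 to 1.19.

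Relations between members were computed over the deviations of the 16 mice from their group means. Of 21 pairs, 1 had an unadjusted permutation p under 0.05 and 0 passed after Benjamini-Hochberg adjustment. This was Angptl6 and Enho (Pearson r = -0.73, permutation p = 0.0371, adjusted 0.644; Spearman rho = -0.51, permutation p = 0.051, adjusted 0.473). Without the 2 mice farthest from the median of Angptl6, Conv + OM(HFD) mouse 25 and Conv + PBS mouse 1, r was -0.14, so the relation rests on those mice. It was -0.84 within slide 1 and -0.57 within slide 2.

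The stress response was then set beside Gdf15 and Inhbe, and beta-catenin targets beside Lect2, in 33 relations, each over 16 mice and with permutation within groups. An unadjusted Pearson p under 0.05 was found in 8, and 5 passed after adjustment by Pearson and 4 by Spearman. The relations were chosen after seeing the data, a choice that the adjustment does not cover, so these p values describe rather than test. The median of the absolute r was 0.37.

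Gdf15 moved with Cdkn1a, the p53 target that encodes the cell cycle inhibitor p21 (r = 0.81, permutation p = 0.00024, adjusted 0.00792; rho = 0.77, p = 0.00065, adjusted 0.0107). The relation was 0.89 within slide 1, 0.92 within slide 2 and 0.71 without the 2 mice farthest from the median of Gdf15. Mdm2, another p53 target, had r = -0.45 (permutation p = 0.156, adjusted 0.368), with 0.07 and -0.83 within the slides and -0.86 without the 2 mice. Chac1, a glutathione-degrading enzyme induced by Atf4, gave r = 0.76 (permutation p = 0.00756, adjusted 0.0499), with 0.77 and 0.66 within the slides, 0.55 without the 2 mice, and a rho of 0.68 that did not pass the adjustment (p = 0.0238, adjusted 0.128).

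Trib3, a pseudokinase of the same stress pathway, ran opposite to Gdf15 (r = -0.74, permutation p = 0.00307, adjusted 0.0325; rho = -0.77, p = 0.00398, adjusted 0.0328). It was -0.45 within slide 1, -0.71 within slide 2 and -0.80 without the 2 mice. Ddit3, which encodes the stress transcription factor CHOP, passed by rank only (rho = 0.76, permutation p = 0.00326, adjusted 0.0328; r = 0.65, p = 0.0212, adjusted 0.11), with r = 0.74 without the 2 mice, and its r was 0.19 within slide 1 and 0.52 within slide 2. Atf4 itself gave r = 0.40 with Gdf15 (permutation p = 0.215, adjusted 0.394), and 0.09 after quantile normalization. Members of 1 stress pathway thus stood on both sides of Gdf15.

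Of the 11 relations of Inhbe, the 1 that passed was with Atf3, a stress-induced transcription factor (r = 0.77, permutation p = 0.00394, adjusted 0.0325), with 0.62 and 0.87 within the slides and 0.65 without Conv + LM mice 13 and 17. By rank it did not pass (rho = 0.67, p = 0.0163, adjusted 0.108).

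Lect2 moved with Nkd1, a feedback inhibitor of Wnt signalling (r = 0.80, permutation p = 0.00173, adjusted 0.0285; rho = 0.85, p = 0.00028, adjusted 0.00924). This was 0.93 within slide 1, 0.65 within slide 2 and 0.77 without Conv + LM mouse 14 and Conv + OM(HFD) mouse 25. Glul, the glutamine synthetase of pericentral hepatocytes, gave r = 0.63 (permutation p = 0.0234, adjusted 0.11; rho = 0.24, p = 0.427, adjusted 0.522), which was -0.03 without those mice and -0.58 within slide 2. The glutamate transporter Slc1a2 gave r = 0.59 (permutation p = 0.0269, adjusted 0.111; rho = 0.24, p = 0.411, adjusted 0.522) and -0.05 without them, so these 2 relations rest on 2 mice. Axin2, a general Wnt target, was well above background on 5 of 16 arrays and gave r = -0.02 (permutation p = 0.959, adjusted 0.959; adjusted 0.98 by rank).

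**Figure D4:**
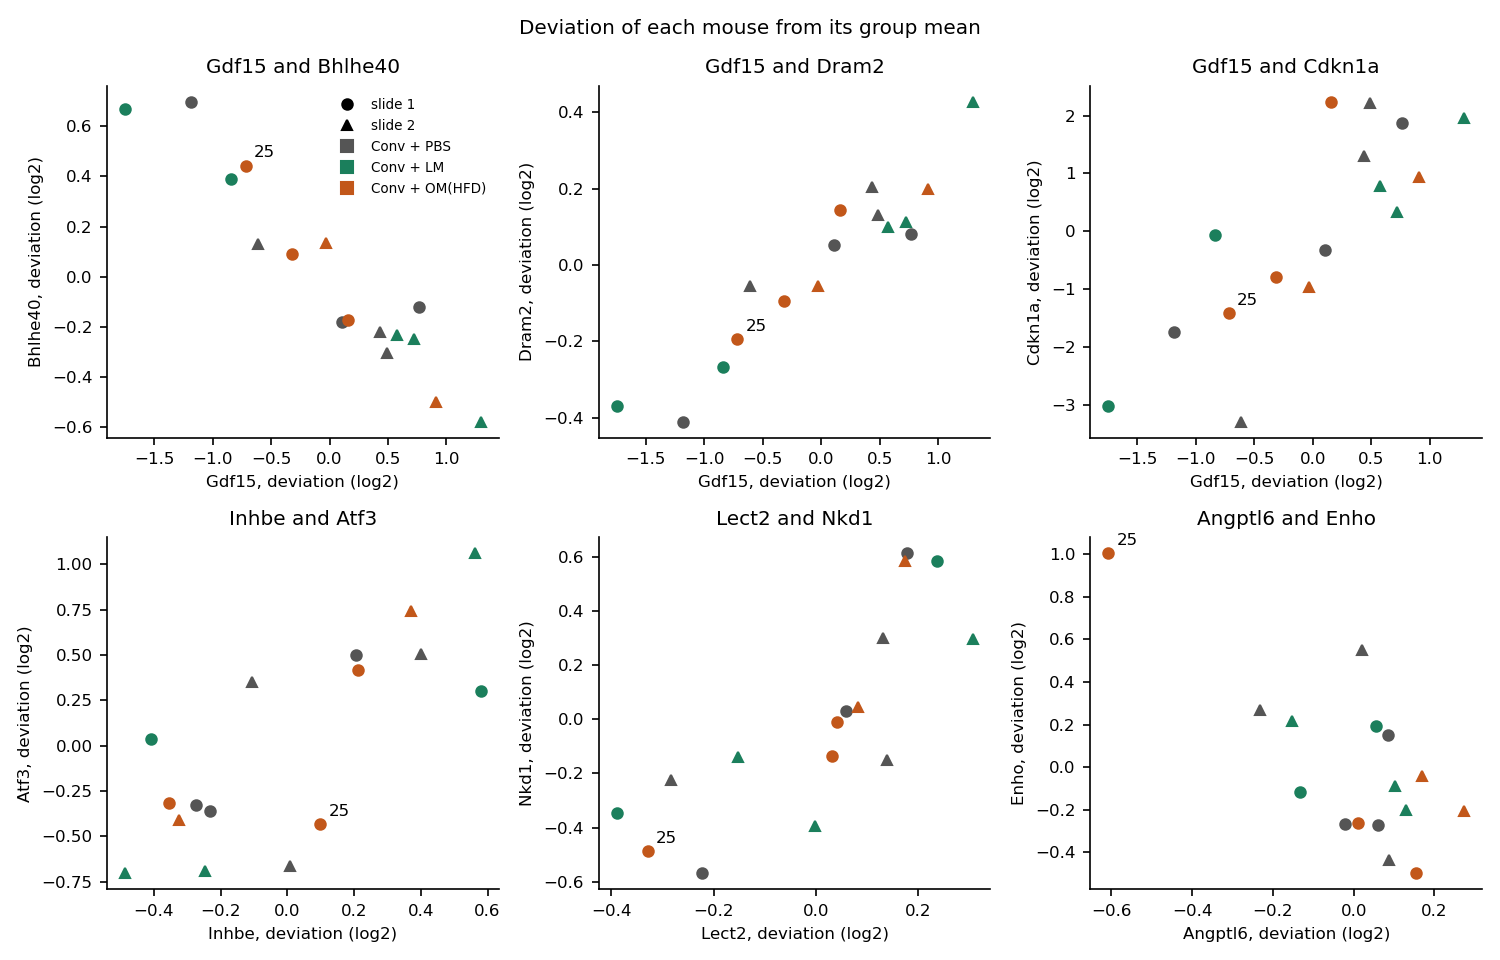
Deviation of each of the 16 mice from its group mean (log2 units, both axes) for 6 pairs of genes, with colours for the group, shapes for the slide and mouse 25 marked. Gdf15 falls as Bhlhe40 rises (r = -0.96) and rises with Dram2 and Cdkn1a; Inhbe rises with Atf3 and Lect2 with Nkd1, while mouse 25 alone stands far off for Angptl6 and Enho.

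For each member the genes most like it over all genes kept are given with Pearson r over the 16 deviations, as a description. For Gdf15 they were Dram2, a membrane protein of autophagy (0.94), Mkl1, a coactivator of serum response factor (0.92), and a transcript known only as NAP096050-001 (0.92). The gene most opposite to it was Bhlhe40, a repressor that binds E-boxes (-0.96; -0.92 within slide 1 and -0.96 within slide 2), picked for this value. Its log2 level ran from 1.62 to 3.19 over the mice, at 3.18 in mouse 13, lowest in Gdf15, and at 1.93 in mouse 17, highest in Gdf15.

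Bhlhe40 is also a gene of the circadian clock, and other clock genes moved with Gdf15. Of 17 clock genes listed after seeing these values, 15 were kept, and the median of their absolute r with Gdf15 was 0.42, against 0.30 over all genes. Arntl, the core activator BMAL1, had r = 0.82 (0.82 within slide 1 and 0.91 within slide 2), with a log2 level of -3.28 in mouse 13, the lowest of 16, and -0.24 in mouse 17. Nfil3, a repressor of D-box genes, had r = 0.78, Clock 0.69 and Cry1 0.66. On the other side Dbp, a D-box activator, had r = -0.79 (-0.77 and -0.96 within the slides) and was at 6.02 in mouse 13 and 4.01 in mouse 17. Per1 and Per2 had -0.42 each, and these were close to 0 or positive within both slides (-0.07 and -0.10; 0.18 and 0.16). The part of the clock genes in the Gdf15 values was not tested.

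Inhbe was nearest to Tti2, a partner of PI3K-like kinases (0.90), followed by 2 unnamed transcribed regions of the array design (0.86 and 0.85). Enho was nearest to Tmem176a, a membrane protein (0.91), Rnase4, a secreted ribonuclease (0.90), and Slc7a7, an amino acid transporter (0.89), and these were 0.82, 0.78 and 0.78 without mouse 25. Lect2 was nearest to Nxpe2 (0.87), Npr2, a natriuretic peptide receptor (0.87), and Acot11, an acyl-CoA thioesterase (0.86).

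The values for Ahsg and Fetub depended on the scaling. Ahsg was nearest to Med16, a Mediator subunit (0.96), Alb, albumin (0.91), and Apoa2, an apolipoprotein (0.91), which were 0.63, 0.75 and 0.31 after quantile normalization. Fetub was nearest to Dhrs13, a dehydrogenase (0.83), and to the transcripts AK011106 (0.81) and ENSMUST00000091375 (0.80), which were 0.52, 0.33 and 0.45 after it. For the other 5 members the r of the 3 nearest genes moved by less than 0.1 after it.

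Angptl6 was nearest to Ecm1, an extracellular matrix protein (0.90), Cdkn2b, a cell cycle inhibitor (0.89), and Vipr1, a receptor for vasoactive intestinal peptide (0.89), at 0.71, 0.75 and 0.83 without mouse 25. The mean log2 levels of markers of several cell types were set beside it over the 16 deviations. The r was -0.81 for neutrophil, 0.80 for stellate cell, -0.64 for B cell and -0.56 for Kupffer cell markers, and between -0.51 and 0.47 for the other lists. Mouse 25 ranked 16 of 16 from the highest in stellate cell, 1 in B cell and 2 in neutrophil and Kupffer cell markers. No r of a marker list with a member was computed without mouse 25, so these r may rest on it. All 5 of 5 stellate cell markers were kept, with Des well above background on 9 of 16 arrays, and their mean log2 level was 0.70 to 1.28 in Conv + PBS, 0.79 to 1.28 in Conv + LM and 0.37 to 1.42 in Conv + OM(HFD), where mouse 25 was the lowest of all mice. Of the 5, 3 (Lrat, Dcn and Colec11) had a log2 fold change below 0, of -0.63, -0.26 and -0.27, at an unadjusted limma p under 0.05 in Conv + OM(HFD) vs. Conv + PBS, where 1.74% of all genes did, while Reln had -0.34 and the dim Des 0.54 without passing it. Lrat did so also in Conv + OM(HFD) vs. Conv + LM (-0.38), where 1.15% of genes did and Des had 0.45. Of 5 sinusoidal endothelial markers, all kept and again lowest in mouse 25 by their mean, Clec4g had such a value against the vehicle (-0.48). Enho had r = 0.68 with neutrophil, 0.67 with B cell, -0.62 with stellate cell and 0.52 with pancreas markers (2 of 5 kept), and between -0.48 and 0.50 with the other lists. Fetub had 0.69 with hepatocyte and 0.61 with red blood cell markers, and Inhbe -0.57 with B cell and -0.55 with sinusoidal endothelial markers. For Ahsg, Gdf15 and Lect2 all 10 lists lay between -0.41 and 0.47. The part of these cell types in the values of Angptl6, Enho, Fetub and Inhbe was not tested.

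Mouse 25 stood apart in other transcripts too. Orm3, an acute-phase plasma protein gene and the one most opposite to Angptl6 (r = -0.91), was at 2.76 in it and at -2.32 to 1.30 in the other 15 mice, and Saa1, the main acute-phase serum amyloid, was at 9.04 against 3.81 to 6.55. Both genes were picked for these values. The mean log2 level of neutrophil markers (4 of 5 kept; Ltf was not) ran from -3.84 to 1.23 in Conv + PBS, from -3.88 to -2.48 in Conv + LM and from -3.73 to 1.01 in Conv + OM(HFD), where mouse 25 was the highest. For the hepatokines it was the lowest of 16 in Angptl6 and the highest in Enho. It was also the highest in Fetub, but at 7.909 barely above mouse 30 at 7.907. It was the lowest of its group in Gdf15 and Lect2, while its Inhbe was the median of its group. What set this mouse apart was not tested.

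Around the members, lists of related genes were read by the same fit. Of 18 other factors that the liver secretes, 17 were kept. In Conv + OM(HFD) vs. Conv + PBS 1 was lower and 0 higher at an unadjusted limma p under 0.05 (1.74% and 1.53% of all genes). In Conv + LM vs. Conv + PBS (3.95% of all genes) and Conv + OM(HFD) vs. Conv + LM (2.71%) 0 were called in either direction. The 1 was Gdf2, which encodes BMP9, a ligand made by stellate cells, at 0.38 ± 0.22 (mean ± SD, n = 5) and at 0.66 ± 0.16 (n = 6) with the vehicle. Its log2 fold change was -0.29 ± 0.12 (SE, unadjusted limma p = 0.0338; exact permutation p = 0.00866; adjusted limma p = 0.9999) over both slides, -0.05 within slide 2 and -0.19 without mouse 25. The unadjusted call ended in 3 of 16 fits that left out 1 mouse, that one and those without Conv + PBS mice 2 (-0.28) and 5 (-0.23). Fgf21, a fasting hormone, had 0.79 ± 0.46 (SE, unadjusted limma p = 0.107; exact permutation p = 0.0931) against the vehicle and 0.65 ± 0.48 (SE, unadjusted limma p = 0.196; exact permutation p = 0.302) against lean microbiota.

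Of 11 family relatives, 7 were kept and 0 had an unadjusted p under 0.05 in any comparison. By this rule 3.27%, 3.95% and 2.71% of all genes were called in the 3 comparisons in the order above. Inhbc, the activin C subunit that is the neighbour of Inhbe in the genome, had log2 fold changes of 0.24, 0.14 and 0.10 in the 3 comparisons in the order above. Of 13 receptors and binding partners, 10 were kept and 0 had such a p in any comparison, against the same shares of all genes. Gfral and Ret, the receptor pair of Gdf15, were not among the genes kept.

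Of 11 genes of the stress response, all were kept and 1 was lower in Conv + LM vs. Conv + PBS and 0 higher (2.23% and 1.72% of all genes), and 1 was higher and 0 lower in Conv + OM(HFD) vs. Conv + LM (1.56% and 1.15% of all genes). Atf4, the transcription factor of the integrated stress response, had a log2 fold change of -0.19 ± 0.09 (SE, unadjusted limma p = 0.0445; exact permutation p = 0.0498) in the former. Ddit3 had 0.40 ± 0.17 (SE, unadjusted limma p = 0.035; exact permutation p = 0.0556) in the latter. Neither passed the adjustment, and both lost the unadjusted threshold with the mean of all their probes (-0.11 and 0.24). Leaving out 1 mouse at a time ended the unadjusted call in 10 of 16 fits for Atf4 (-0.24 to -0.15 over all 16) and in 4 for Ddit3 (0.26 without Conv + LM mouse 14, 0.37 without mouse 13, and 0.36 and 0.34 without Conv + OM(HFD) mice 26 and 29). Over the whole stress list 7 of 11 log2 fold changes were above 0 in Conv + OM(HFD) vs. Conv + PBS (median 0.09), 2 in Conv + LM vs. Conv + PBS (median -0.16) and 11 in Conv + OM(HFD) vs. Conv + LM (median 0.20, against 0.01 over all genes). The first was 5 within slide 2 (median -0.04) and 6 without mouse 25 (median 0.04). Its median was 0.20 within slide 1 and 0.05 without Conv + PBS mouse 2. The second was 2 to 4 under the settings tried, with a median of -0.10 without Conv + LM mouse 17. The last was the same after quantile normalization and in the authors' processed values, 10 within slide 1 and 7 within slide 2 (median 0.02), and 8 without mouse 25. Its median ran from 0.11 without Conv + LM mouse 13 to 0.36 without Conv + OM(HFD) mouse 26.

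Of 11 beta-catenin targets and 9 hepatocyte transcription factors, all were kept and 0 had an unadjusted p under 0.05. The share of all genes called by this rule was 3.27%, 3.95% and 2.71% in the 3 comparisons in the order above. For the beta-catenin targets 9 of 11 log2 fold changes were below 0 in Conv + OM(HFD) vs. Conv + PBS (median -0.23, against -0.0004 over all genes). In Conv + LM vs. Conv + PBS 8 were (median -0.04, against -0.01), and in Conv + OM(HFD) vs. Conv + LM 10 (median -0.15, against 0.01). The first was 7 within slide 1 and 7 without mouse 25 (median -0.11), and its median was -0.14 in the authors' processed values. The second turned, with 4 within slide 1 (median 0.21), 4 without Conv + LM mouse 14, and 5 without mouse 16 or Conv + PBS mouse 1, against 10 within slide 2. Its median ran from -0.16 to 0.02 on leaving out 1 mouse. The last was 9 within slide 1 and 5 within slide 2, and 4 without Conv + LM mouse 13, whose Lect2 level was 5.24. The median of this last comparison ran from -0.23 to 0.0025 on leaving out 1 mouse. Glul had log2 fold changes of -0.25, -0.25 and -0.0032 and Axin2 of -0.23, 0.42 and -0.66 in the same order of comparisons. Nr1h3, the oxysterol receptor LXR-alpha, which is known to repress Enho, lay between -0.03 and 0.03, and Rora, a nuclear receptor of the circadian clock, between -0.06 and 0.11.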

How the data were processed

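Single-colour Agilent arrays (SurePrint mouse design) carried liver RNA of 16 mice. The deposited scanner files hold spot intensity from Feature Extraction 10.10.1.1, per the submitters' processing notes, with probe positions on build mm9. The deposited series table holds the authors' processed log2 values, which matched quantile-normalized median brightness, and served as an alternative.

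Background-subtracted, detrended intensity (gProcessedSignal) was taken as log2 minus the 75th percentile of the array. Flagged outlier spots were dropped, spots of a probe averaged, and probes kept if well above background on at least 5 of 16 arrays; the probe of highest mean stood for a gene. No spot was saturated. Of the 20404 gene names kept, 14635 matched a RefSeq symbol and 701 a synonym. Groups were compared with limma 3.58.1 (R 4.3.3) in 1 fit over all mice, with Benjamini-Hochberg adjustment over all genes, and with exact two-sided permutation tests. Correlations used 100000 permutations within groups. Fits were tested on simulated data.

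Genes named besides the 7 were those of fixed lists at an unadjusted p under 0.05, 8 chosen by name (Fgf21, Inhbc, Atf4, Ddit3, Nr1h3, Rora, Glul and Axin2) and the 3 most like each member. Bhlhe40, the clock genes, Orm3, Saa1, Reln, the genes set against a member in a relation and those named as not kept or dim fell outside this rule. Members and lists were chosen with earlier results of these data known. The number of arrays limits the precision. Alternatives covered background correction, scaling, the authors' values, dim probes, slide, samples in the fit, array weights, probe choice, the methods' t-test (unpaired, at p under 0.05) and leaving out each mouse.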

Additional observations from a re-analysis of the deposited data

Results flagged for a closer look

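In the 21 combinations of gene and group tested for a mouse far from the others of its group, 2 stood out by Dixon's criterion at the 95% level, where chance flags about 1 in 20 groups. Angptl6 of Conv + PBS mouse 1 was 2.60 on the log2 scale, below the other 5 mice of that group at 2.80 to 2.91. Lect2 of Conv + OM(HFD) mouse 25 was 4.63, below the other 4 mice at 4.996 to 5.14.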

How the results depend on the processing

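No member passed the adjusted threshold in any of the 588 recomputed fold changes; the lowest adjusted p was 0.821, and the lone unadjusted p under 0.05 raised the count for Conv + OM(HFD) vs. Conv + LM from 0 to 1 without Conv + LM mouse 16. The sign turned in 23 of 252 fold changes from the 12 other settings and in 32 of 336 from leaving out a mouse; beyond what is stated, the cause was not tested. No paired analysis was possible because the groups share no mouse number.

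For Conv + OM(HFD) vs. Conv + PBS, Ahsg was -0.0089 after quantile normalization and -0.017 in the authors' values. Within slide 2 Fetub was -0.011, Angptl6 0.11, Inhbe -0.036 and Lect2 0.084, and Lect2 was 0.015 with array weights. Within slide 1 Gdf15 was -0.073. For Conv + LM vs. Conv + PBS, Fetub was 0.0095 in the authors' values and 0.0083 with array weights, and Lect2 0.0089 after quantile normalization and 0.024 with array weights. Within slide 2 Angptl6 was 0.0075 and Lect2 0.041. Gdf15 was -0.037 with slide as a block and -1.13 within slide 1. For Conv + OM(HFD) vs. Conv + LM, Ahsg was -0.0048 in the authors' values, and with normexp Gdf15 was -0.0068 and Lect2 0.00033. Within slide 2 Angptl6 was 0.10, Gdf15 -0.37 and Lect2 0.043, and Gdf15 was -0.11 with array weights.

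Leaving out 1 mouse moved Conv + OM(HFD) vs. Conv + PBS from -0.051 to 0.13 for Inhbe, from -0.12 to 0.30 for Gdf15 and from -0.10 to 0.034 for Lect2. Conv + LM vs. Conv + PBS ran from -0.061 to 0.021 for Fetub, from -0.26 to 0.50 for Gdf15 and from -0.091 to 0.083 for Lect2. Conv + OM(HFD) vs. Conv + LM ran from -0.16 to 0.056 for Angptl6, from -0.38 to 0.38 for Gdf15, from -0.30 to 0.077 for Enho and from -0.13 to 0.049 for Lect2.

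The SD of Ahsg among mice was 0.055 after quantile normalization and 0.075 in the authors' values, against 0.13. The r of Lect2 with Glul was -0.58 within slide 2 and -0.025 without the 2 mice farthest from the median, and with Slc1a2 -0.054 without them. The slide test, the relations with known inputs, the list counts by sign under other settings and the leaving out of mice in relations were chosen after seeing the data. Groups of 5 or 6 and the spread among mice limit what could be detected, most for Gdf15.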
